A study of Mus musculus with 4 samples.

Results

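Mitosis genes were followed in the RNA-seq of λ-MYC lymphoma cells, as 40 named genes that act from entry into mitosis to cytokinesis. The genes were chosen by name, from what their proteins do, but with earlier results of these data known. They make up 40 of the 34866 genes in the table. All 40 were found, all are protein-coding, and all 40 passed the filter on low values. The λ-MYC mice carry a human MYC gene under regulatory sequences of the Igλ light chain (λ-MYC+/TG), together with a knock-in Cre recombinase and a Cre-dependent tomato reporter in Rosa26 (R26tdTom+/ki), both heterozygous. Tom+ cells are thus cells in which Cre has been active at some time, or their descendants. From the spleens of 2 sick mice with IgM+Tom+ tumors (tumors #1 and #2), B220+ IgM+ Tom+ and B220+ IgM+ Tom- cells were sorted, which gave 4 libraries, 1 of each kind per mouse. All 4 libraries therefore carry the MYC transgene and both knock-in alleles, no normal B cells are among them, and a tumor is 1 mouse. The ages of these 2 mice are not given in the sources used here.

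Values are TPM, transcript numbers scaled to the same total in each library and corrected for transcript length, so that levels of different genes can be compared. Where a pair of values is given for a tumor, Tom- cells come first and Tom+ cells next. TPM keeps no record of read numbers, so sequencing depth cannot be read from the table and counting error is left without an interval. The sorted cells carried B cell transcripts, with 8 of 8 B cell markers detected in every library. Of the markers of other cells, those of T and NK cells summed to 0.398 (Tom-) and 0.398 TPM (Tom+) in tumor #1, against 8.27 and 3.93 TPM in tumor #2, with Ncr1 and Nkg7 at 0 throughout. Myeloid markers summed to between 0.656 and 8.92 TPM. Plasma cell markers summed to between 30.2 and 34.7 TPM in 3 libraries and to 260 TPM in Tom+ cells of tumor #2. Erythroid markers summed to 21.5 and 17.6 TPM in tumor #1, against 0.804 and 1.14 in tumor #2, with Hba-a1 and Hba-a2 at 0 throughout. Mitochondrial genes took between 6.61% and 15.6% of TPM, immunoglobulin genes between 5.35% and 9.76%, and pseudogenes between 23.4% and 31.3%.

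Mitosis begins when CDK1, bound to cyclin B and freed of inhibitory phosphates by CDC25 phosphatases, phosphorylates its targets. Aurora and Polo-like kinases then help to build the spindle, the kinetochores capture microtubules, and the spindle assembly checkpoint holds back the anaphase-promoting complex until every chromosome is attached. Most of the genes concerned are transcribed together late in the cell cycle, by FOXM1, B-MYB and the NF-Y factor, through promoter elements called the CHR (cell cycle genes homology region) and the CCAAT box, and are silenced in resting cells by the DREAM complex. Germinal center B cells and Burkitt lymphoma cells are among the fastest dividing cells known. In bulk RNA, fewer dividing cells and less RNA per dividing cell cannot be told apart.

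The promoter windows show what these genes share in sequence. RefSeq windows of 300 bases, 250 before and 50 after the annotated start (GRCm38.p6), were at hand for 32 of the 40 genes, in 35 windows. The CHR was searched as TTTGAA and TTCGAA, the CCAAT box as CCAAT and the E-box, which MYC and its partner MAX can bind, as CACGTG, each on both strands, so that CCAAT can read ATTGG and TTTGAA can read TTCAAA. Every occurrence was counted, whether or not it overlapped another. A CHR hexamer was present in 27 of the 35 windows (77.1%) and in 19.2% of all 32851 windows of the table. CCAAT was present in 77.1% and 37.4%, and both in 71.4% and 7.52%. Of the 32 genes, 22 had both in the same window and 16 had CCAAT at least 2 times. The E-box was in 2 windows (5.71%, against 7.15% of all windows), those of Espl1 and Ttk. A match is a sequence description and not a bound site. The windows below, written 5′ to 3′ on the strand of the gene with CHR, CCAAT and E-box matches in capitals, are those of the kinase that drives mitosis, of the genes with the lowest levels in tumor #2 relative to tumor #1 in the cyclin and checkpoint groups, and of the 2 genes whose mean was higher in tumor #2.
Cdk1, chr10:69352863-69353162, minus strand: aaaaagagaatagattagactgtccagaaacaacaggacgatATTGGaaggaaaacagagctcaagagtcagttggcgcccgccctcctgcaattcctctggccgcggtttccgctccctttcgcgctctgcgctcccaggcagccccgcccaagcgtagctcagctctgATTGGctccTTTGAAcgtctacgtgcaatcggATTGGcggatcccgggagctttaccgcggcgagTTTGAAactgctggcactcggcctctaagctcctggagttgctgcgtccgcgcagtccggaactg
Ccnb1, chr13:100786437-100786736, minus strand: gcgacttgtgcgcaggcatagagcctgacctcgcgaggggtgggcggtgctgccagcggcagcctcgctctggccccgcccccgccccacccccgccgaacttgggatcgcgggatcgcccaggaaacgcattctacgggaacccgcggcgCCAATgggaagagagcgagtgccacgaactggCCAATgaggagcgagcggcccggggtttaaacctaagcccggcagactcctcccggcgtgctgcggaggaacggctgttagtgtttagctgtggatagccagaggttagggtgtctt
Bub1, chr2:127831810-127832109, minus strand: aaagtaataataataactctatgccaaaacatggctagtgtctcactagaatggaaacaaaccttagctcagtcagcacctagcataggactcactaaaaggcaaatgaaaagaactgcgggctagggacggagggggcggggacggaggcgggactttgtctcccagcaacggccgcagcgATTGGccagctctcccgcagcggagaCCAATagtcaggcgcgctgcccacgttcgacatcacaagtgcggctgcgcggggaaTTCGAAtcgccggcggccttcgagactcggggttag
Ect2, chr3:27153805-27154104, minus strand: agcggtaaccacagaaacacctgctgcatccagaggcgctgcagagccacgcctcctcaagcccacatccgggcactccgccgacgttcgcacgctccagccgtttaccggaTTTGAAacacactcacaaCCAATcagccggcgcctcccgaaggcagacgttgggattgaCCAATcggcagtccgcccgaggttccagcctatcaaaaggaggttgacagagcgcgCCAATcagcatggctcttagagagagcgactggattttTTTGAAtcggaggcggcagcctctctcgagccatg
Pttg1, chr11:43425932-43426231, minus strand: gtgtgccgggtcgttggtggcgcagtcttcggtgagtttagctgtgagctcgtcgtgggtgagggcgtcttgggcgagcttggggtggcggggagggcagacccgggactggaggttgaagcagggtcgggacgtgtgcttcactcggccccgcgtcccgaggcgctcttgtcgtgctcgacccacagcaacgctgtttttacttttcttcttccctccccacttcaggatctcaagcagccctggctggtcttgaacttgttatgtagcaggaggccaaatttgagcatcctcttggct
The Cdk1 window holds 2 CHR hexamers and 3 CCAAT boxes, the Ccnb1 window 2 CCAAT boxes without either CHR spelling, and the Bub1 window 1 CHR hexamer and 2 CCAAT boxes. The Ect2 window shown, 1 of 2 annotated for this gene, holds 2 CHR hexamers and 3 CCAAT boxes. None of the letters searched occurs in the Pttg1 window. That window lies wholly inside the span of the gene as annotated in GENCODE M21 (43420250 to 43426251). Bases before the outermost annotated start of Pttg1 were therefore not searched.

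The first comparison, and the one the sort was made for, was that of Tom+ with Tom- cells of the same tumor. None of the mitosis genes was called different. By limma, blocked by tumor, on log2(TPM + 1) and over all 11339 genes with at least 1 TPM in at least 2 libraries, 0 of the 40 had an adjusted p-value below 0.05, and the smallest was 0.936, where 0% of all genes tested were called. Without adjustment, 0 of the 40 had a p-value below 0.05, against 2.04% of all genes higher and 2.64% lower in Tom+ cells. The median log2 fold change of Tom+ against Tom- cells over the 40 genes was -0.082 ± 0.056 (SD, n = 2 tumors), from -0.046 in tumor #1 and -0.13 in tumor #2, and that of all genes tested was -0.033. Its range was from -0.53 for Mad2l1 to 0.26 for Cdk1, 31 of the 40 genes lay within 0.25 of 0, and 1 exceeded 0.5 in size. The standard errors of the 40 log2 fold changes were between 0.13 and 0.30. With 2 pairs, 0.5 is the smallest p-value an exact permutation test could reach, so none was run for single genes. The -0.53 of Mad2l1, with an SE of 0.19, did not pass either, so changes well above these errors could go uncalled in 2 pairs.

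The Tom+ against Tom- differences of the tumors showed little relation, among the mitosis genes as among all genes tested. In either tumor 15 genes were higher and 25 lower in Tom+ cells, where 50.4% of all genes were lower in tumor #1 and 56.6% in tumor #2. Of the 40, 6 genes were higher in both and 16 lower in both, while 18 went in opposite directions. Over all genes tested, 21.6% were higher and 29.5% were lower in both tumors. Across the 40 genes the log2 fold change in tumor #1 and the one in tumor #2 had a Pearson's r of -0.0427 and a Spearman's rho of -0.00957, against 0.000285 and 0.0359 over all genes tested (a description over genes that share the same 4 libraries). Over all the alternative fits, between 6 and 10 genes were higher and between 13 and 16 lower in both tumors. The SD of the differences over the 40 genes was 0.348 in tumor #2 and 0.213 in tumor #1, and over all genes tested it was 0.787 and 0.602, so the spread was wider in tumor #2 for all genes as well. In 1 gene, Kif23, both Tom+ libraries were above both Tom- libraries, where 6.42% of all genes were. In 3 genes, Cenpa, Cenpe and Aurkb, both Tom+ libraries were below both Tom- libraries, where 9.86% of all genes were.

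**Figure D1:**
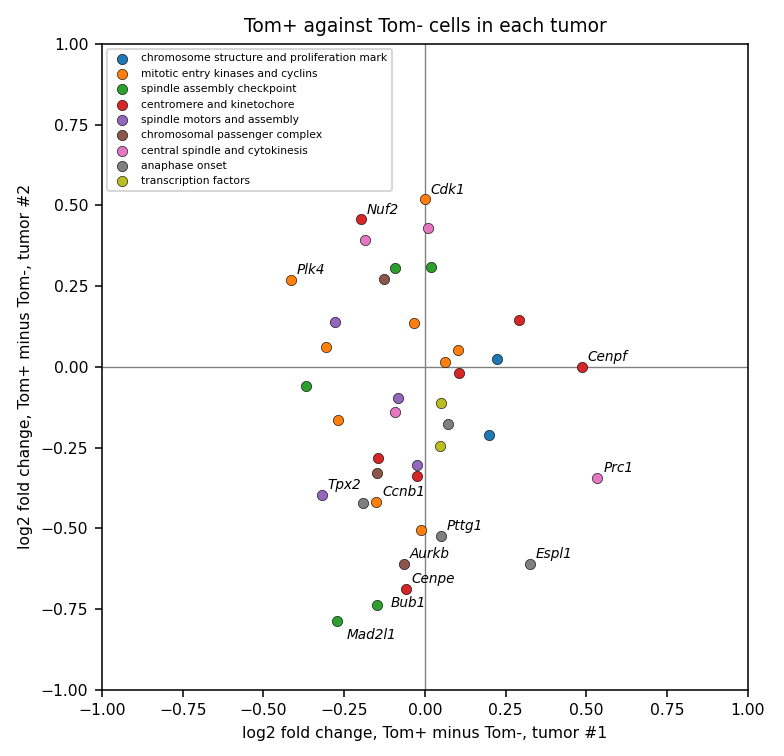
Log2 fold change of log2(TPM + 1), Tom+ minus Tom-, in tumor #1 (horizontal axis) and tumor #2 (vertical axis) for the 40 mitosis genes, 1 point per gene, colored by role, with 13 genes named. Of the points, 6 lie in the upper right field, 16 in the lower left and 18 in the other fields, and the cloud is wider along the axis of tumor #2.

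The second comparison was between the tumors, and here the mitosis genes stood mostly on one side. The mean of 38 of the 40 was lower in tumor #2 than in tumor #1, where 38.2% of all genes tested were lower. In 33 of the 40 both libraries of tumor #2 were below both of tumor #1, against 23.7% of all genes, and in 1, Pttg1, both were above, against 44.8%. The median difference of log2(TPM + 1), tumor #2 minus tumor #1, was -0.61 over the 40 genes, -0.61 between the Tom- libraries and -0.59 between the Tom+ libraries. Over all genes tested the median was 0.20 in the other direction. Because each tumor is 1 mouse, there is no replicate of a tumor, no p-value is given, and the difference is one between these 2 animals. TPM is relative, so the level of the difference moves with the scaling. It was -0.84 with trimmed-mean scaling, where the median of all genes moved to -0.0042, and -0.49 with mitochondrial genes left out. Measured from the median of all genes it was -0.81, between -0.87 and -0.72 over the alternatives.

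Summed over the 40 genes, the level was 2264 (Tom-) and 2254 TPM (Tom+) in tumor #1, against 1521 and 1427 TPM in tumor #2, a ratio of 0.653 between the tumors. The sums of both sorted populations of a mouse were thus close, and those of the mice did not overlap. As a share of the TPM of nuclear protein-coding genes, the 40 genes took 0.407% and 0.409% in tumor #1 and 0.281% and 0.283% in tumor #2. When the variation of log2(TPM + 1) over the 40 genes was split into sums of squares, 85.8% lay between the tumors, 7.22% lay between the sorted populations and the rest in the remainder, against 69.9% and 15.0% over all genes tested. Other values differed between the tumors in the same libraries. Mitochondrial genes took 6.61% and 8.67% of TPM in tumor #1 and 14.4% and 15.6% in tumor #2, 8 of 8 B cell markers were higher in both libraries of tumor #2, and erythroid transcripts were higher in tumor #1. Their part in the difference was not tested.

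**Figure D2:**
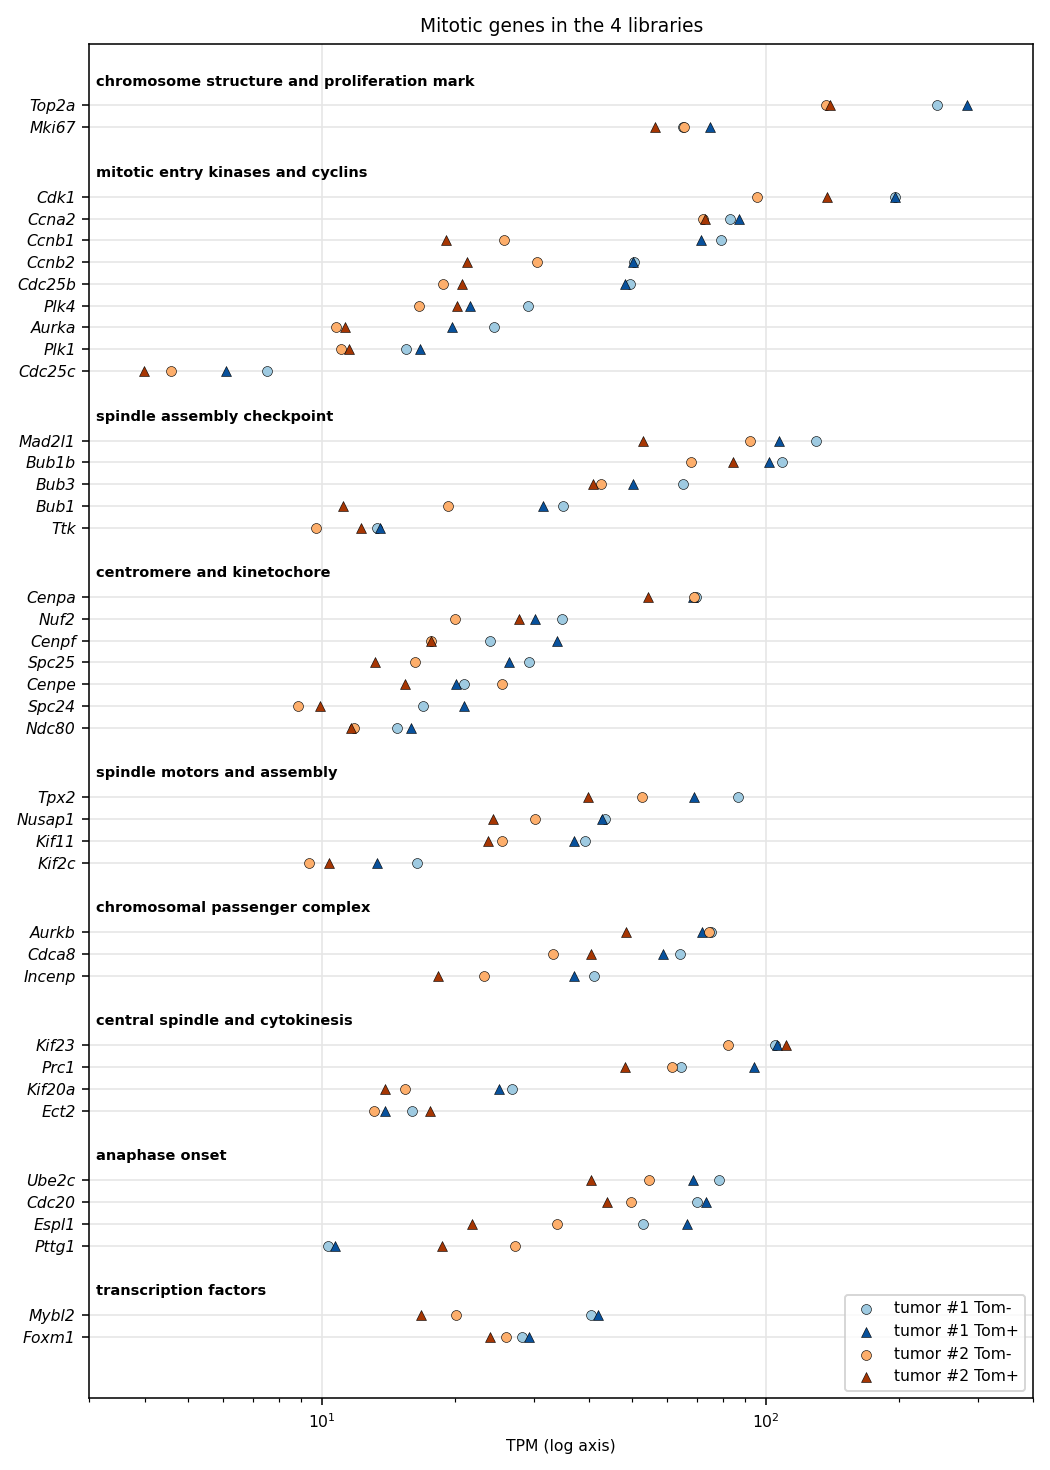
TPM on a log axis for the 40 mitosis genes, grouped by role and ordered by mean TPM within a role. Each row has 4 points, 1 per library, circles for Tom- and triangles for Tom+ cells, blue for tumor #1 and orange for tumor #2, and in 33 rows both orange points lie to the left of both blue points.

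Among the genes of mitotic entry, the cyclin and kinase levels did not keep the same proportions in the tumors. Cdk1, the catalytic subunit, was at 195 TPM in both libraries of tumor #1, against 95.4 (Tom-) and 137 TPM (Tom+) in tumor #2. It was the second most abundant of the 40 genes on average and had the largest positive log2 fold change in Tom+ cells (0.26, SE 0.19, adjusted p = 0.936 from limma), all of it from tumor #2. Ccnb1, which encodes cyclin B1 (ENSMUSG00000041431, chromosome 13, 100778650 to 100786570 of GRCm38), was at 79.4 and 71.4 TPM in tumor #1, against 25.8 and 19.0 in tumor #2. This was the largest difference between the tumors among the 40 genes, 3.36-fold lower in tumor #2 by mean TPM, and -1.72 on the log2(TPM + 1) scale. Cenph, a gene outside the 40 that lies close by on chromosome 13 (100759674 to 100775899), differed by -1.72 too. Any part of this position was not tested. Between Tom+ and Tom- cells, Ccnb1 differed by -0.28 (SE 0.16, adjusted p = 0.936), lower in both tumors. Ccnb2, which encodes cyclin B2, was at 50.5 and 50.1 TPM in tumor #1, against 30.6 and 21.3 in tumor #2. Ccna2, for cyclin A2, which acts from S phase into early mitosis, was nearly even at 83.3 and 87.1 TPM in tumor #1, against 72.3 and 73.1 in tumor #2. The ratio of Ccnb1 to Ccna2 was therefore 0.953 and 0.820 in tumor #1 and 0.357 and 0.260 in tumor #2. The phosphatase gene Cdc25b had the second largest difference, with 49.4 and 48.3 TPM in tumor #1, against 18.8 and 20.7 TPM in tumor #2 (-1.27 on the log2(TPM + 1) scale). Its relative Cdc25c was the least abundant of the 40 genes in every library, between 3.98 and 7.55 TPM. The kinase genes Aurka (mean 1.995-fold lower in tumor #2), Plk1 (1.43-fold) and Plk4 (1.38-fold), which act at centrosomes and spindle poles, were also lower in both libraries of tumor #2. All 9 genes of this group were lower without overlap.

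Genes of the spindle assembly checkpoint were lower in both libraries of tumor #2 for 5 of 5. Mad2l1, which encodes MAD2, the protein that binds and inhibits CDC20 (chromosome 6, 66535390 to 66547220), was at 129 (Tom-) and 107 TPM (Tom+) in tumor #1, against 92.2 and 53.0 TPM in tumor #2. Tom+ cells were lower in both tumors, the libraries of the groups overlapped, and the log2 fold change was -0.53 (SE 0.19, unadjusted p = 0.0652 and adjusted p = 0.936 from limma), the smallest unadjusted p-value of the 40 genes. The lowest Mad2l1 value was in the library with 260 TPM of plasma cell markers, whose part in it was not tested. The kinase gene Bub1 was at 34.9 and 31.5 TPM in tumor #1, against 19.3 and 11.1 in tumor #2. Its log2 fold change in Tom+ cells was -0.44 (SE 0.23, adjusted p = 0.936), the mean of -0.15 in tumor #1 and -0.74 in tumor #2. Bub1b, for the checkpoint protein BUBR1, and Ttk, for the kinase MPS1 at the head of the pathway, had the opposite sign in Tom+ cells, at 0.11 and 0.16, with adjusted p-values of 0.954 and 0.944. Bub3, the binding partner of BUB1 and BUBR1, was at 65.1 and 50.2 TPM in tumor #1, against 42.7 and 40.9 in tumor #2. The checkpoint genes were thus not on one side in Tom+ cells, with 3 lower in both tumors, 1 higher in both and 1 opposite.

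Of the centromere and kinetochore genes, 5 of 7 were lower in both libraries of tumor #2, and the other two overlapped. Cenpa, the histone H3 variant that marks centromeres, was at 69.8 (Tom-) and 68.6 TPM (Tom+) in tumor #1, against 68.9 and 54.3 TPM in tumor #2, so that 1 library stood lower than the rest. Cenpe, a kinesin that carries chromosomes to the spindle equator, was at 20.9 and 20.048 TPM in tumor #1, against 25.4 and 15.4 in tumor #2. For Cenpe the log2 fold change in Tom+ cells was -0.37 (SE 0.24, adjusted p = 0.936), nearly all from tumor #2. The means of the tumors differed by -0.044. This moved to -0.27 with trimmed-mean scaling, -0.30 after quantile normalization and 0.070 with mitochondrial genes left out. The lowest Cenpe and Cenpa values were in Tom+ cells of tumor #2, and the part of the plasma cell markers was not tested. Cenpf, a large kinetochore protein, was higher in Tom+ cells of tumor #1 only, at 23.9 and 33.9 TPM against 17.6 TPM in both libraries of tumor #2. The 4 subunits of the NDC80 complex, which holds the microtubule at the kinetochore and contains 1 copy of each, were not equal in TPM. In Tom- cells of tumor #1, Ndc80 was at 14.7, Nuf2 at 34.8, Spc24 at 16.9 and Spc25 at 29.3 TPM, and the ratio of the highest to the lowest subunit was between 1.898 and 2.81 in the 4 libraries. All 4 were lower in tumor #2, with differences of -0.93 for Spc24, -0.89 for Spc25, -0.36 for Ndc80 and -0.44 for Nuf2 on the log2(TPM + 1) scale.

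Chromosome and spindle genes were lower in tumor #2 for 6 of 6, and 5 of these did not overlap. Top2a, which encodes the topoisomerase that untangles sister DNA before segregation, was the most abundant of the 40 genes in each library, at 244 and 284 TPM in tumor #1, against 137 and 139 in tumor #2. The proliferation mark Mki67 did not separate the tumors, at 65.1 and 74.8 TPM in tumor #1, against 65.5 and 56.4 in tumor #2. Tpx2, the activator of Aurora A at the spindle, was at 86.5 and 69.1 TPM in tumor #1, against 52.6 and 39.7 in tumor #2. Tom+ cells had the lower value in both tumors (-0.32 and -0.40 on the log2 scale), with a log2 fold change of -0.36 (SE 0.14, unadjusted p = 0.0726 and adjusted p = 0.936 from limma). Kif11, a motor that pushes the poles apart, Kif2c, a microtubule depolymerase, and Nusap1, a microtubule binding protein, were lower in both libraries of tumor #2, with differences of -0.61, -0.54 and -0.65 between the tumors and log2 fold changes in Tom+ cells of -0.090, -0.070 and -0.16.

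In the chromosomal passenger complex, which corrects faulty attachments and later directs cytokinesis, the libraries of the tumors overlapped for the kinase and not for its partners. The kinase gene Aurkb was at 75.4 (Tom-) and 72.0 TPM (Tom+) in tumor #1, against 74.6 and 48.5 TPM in tumor #2. The low value was that of 1 library, Tom+ cells of tumor #2, and the log2 fold change was -0.34 (SE 0.20, adjusted p = 0.936). Incenp, the scaffold, was at 41.1 and 37.0 TPM in tumor #1, against 23.2 and 18.3 in tumor #2. Cdca8, which encodes borealin, was at 64.1 and 58.7 TPM in tumor #1, against 33.2 and 40.3 in tumor #2. Birc5, for survivin, the subunit outside the 40 genes, was at 67.1 and 67.9 TPM in tumor #1, against 29.5 and 20.6 in tumor #2. On the log2(TPM + 1) scale the tumors differed in Tom- cells by -0.016 for Aurkb, -0.80 for Incenp and -0.93 for Cdca8, and in Tom+ cells by -0.56, -0.98 and -0.53, where Aurkb and Cdca8 were alike in size. Plasma cell markers were high in the library with the low Aurkb value, and their part in it was not tested.

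The genes of the central spindle and cytokinesis differed least between the tumors, with a median difference of -0.32 over 4 genes and 2 lower without overlap. Kif23, a motor of the central spindle, was at 105 and 106 TPM in tumor #1, against 82.2 and 111 in tumor #2. It was the highest of this group, and its log2 fold change in Tom+ cells of 0.22 (SE 0.17, adjusted p = 0.936) came from tumor #2. Prc1, which bundles the microtubules of the central spindle, was at 64.5 and 93.9 TPM in tumor #1, against 61.5 and 48.3 in tumor #2, with opposite signs of 0.53 and -0.34 in Tom+ cells. Ect2, the exchange factor that activates RhoA for the contractile ring, was at 15.9 and 13.9 TPM in tumor #1, against 13.1 and 17.5 in tumor #2. Its libraries overlapped, and its small mean difference of 0.027 between the tumors turned to -0.20 under trimmed-mean scaling and to -0.26 after quantile normalization. Kif20a, a motor that brings the passenger complex to the midzone, was at 26.8 and 25.1 TPM in tumor #1, against 15.4 and 13.9 in tumor #2.

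At the onset of anaphase, securin stood apart from the enzyme it inhibits. Pttg1, which encodes securin (ENSMUSG00000020415, chromosome 11, 43420250 to 43426251), was at 10.3 (Tom-) and 10.7 TPM (Tom+) in tumor #1, against 27.3 and 18.7 TPM in tumor #2. Espl1, for separase, the protease that cuts cohesin, was at 53.0 and 66.6 TPM in tumor #1, against 33.9 and 21.9 in tumor #2. The differences, tumor #2 minus tumor #1, were thus 1.03 for Pttg1 and -1.10 for Espl1 on the log2(TPM + 1) scale. The ratio of Pttg1 to Espl1 TPM was 0.195 and 0.161 in tumor #1 and 0.805 and 0.855 in tumor #2. Pttg1 stayed higher in tumor #2 under each scaling, by between 0.76 and 1.15, and was described apart from the rule for naming genes, after its values had been seen, as was Ect2. Ube2c, the conjugating enzyme of the anaphase-promoting complex, was at 78.5 and 68.6 TPM in tumor #1, against 54.5 and 40.4 in tumor #2, with a log2 fold change in Tom+ cells of -0.31 (SE 0.15, adjusted p = 0.936). Cdc20, its activator and the target of the checkpoint, was at 69.9 and 73.4 TPM in tumor #1, against 49.8 and 43.9 in tumor #2. Of the transcription factors, Mybl2, which encodes B-MYB, was at 40.5 and 41.8 TPM in tumor #1, against 20.021 and 16.7 in tumor #2. Foxm1 was closer, at 28.3 and 29.3 TPM against 25.97 and 23.96 TPM. Both were lower in tumor #2 without overlap, with differences of -1.13 for Mybl2 and -0.20 for Foxm1.

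**Figure D3:**
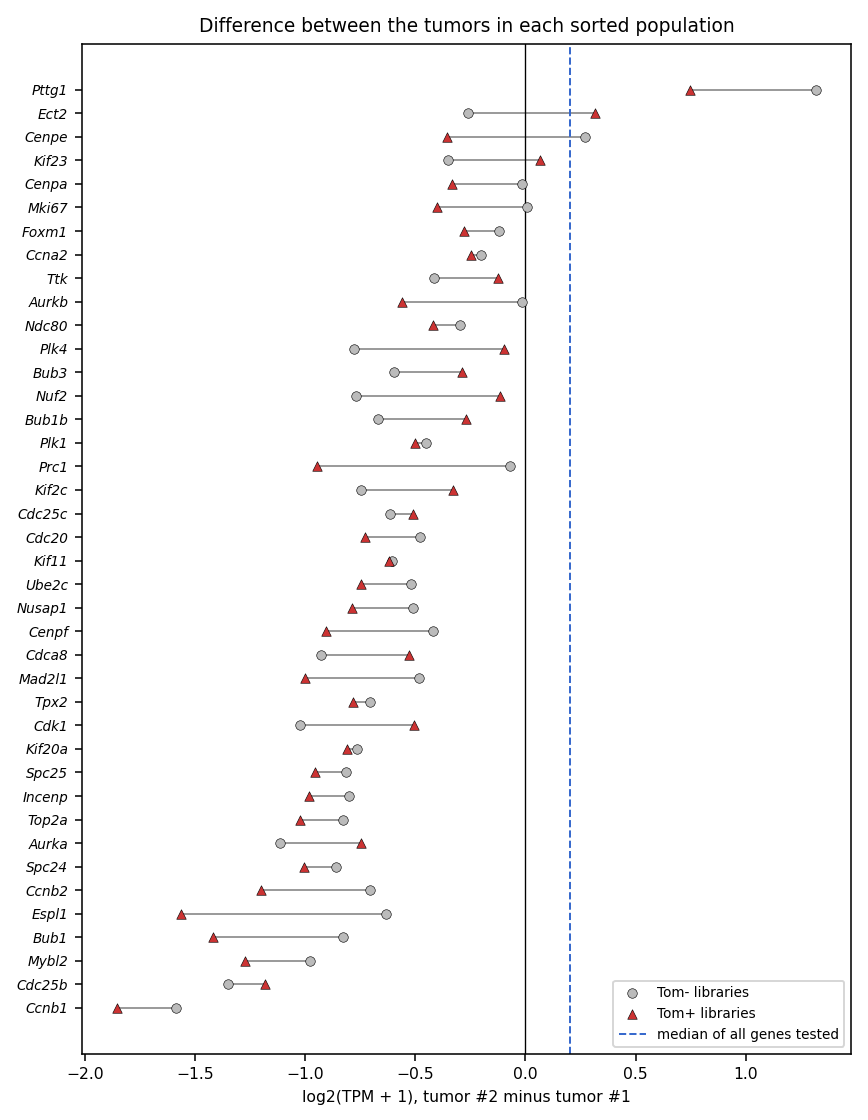
Difference of log2(TPM + 1), tumor #2 minus tumor #1, for each of the 40 mitosis genes, with circles for the Tom- libraries, triangles for the Tom+ libraries and the median of all genes tested (0.20) as a dashed line. In each population 37 of the 40 genes lie left of 0, from Ccnb1 at the bottom to Pttg1 alone on the far right.

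The direction of the difference between the tumors was mostly the same in both sorted populations, while the order of the genes was only moderately alike. Between the Tom- libraries 37 of the 40 genes were lower in tumor #2, as were 37 of the 40 between the Tom+ libraries, and the differences in the 2 populations correlated over genes (Pearson's r = 0.647, Spearman's rho = 0.534, and 0.626 and 0.669 over all genes tested). The difference between the tumors was larger than the Tom+ against Tom- difference of either tumor in 30 of the 40 genes, and in 57.9% of all genes tested. The 5 genes lower by at least 1 on the log2(TPM + 1) scale were Ccnb1, Cdc25b, Mybl2, Bub1 and Espl1, where 5.54% of all genes were lower by as much. Pttg1 was the 1 gene higher by at least 1, where 16.8% of all genes were. The 22 genes with both a CHR hexamer and CCAAT in a window had a median difference of -0.62 between the tumors, from -1.27 to 0.027. The 10 with a window that lacked one or both had -0.49, from -1.72 to 1.03, the value of Pttg1. Of the 10, the windows of Pttg1 and Kif2c lie wholly inside the span of the gene, as does that of Cdca8 among the 22. For these genes, bases before the outermost annotated start were not searched, so the split depends on where the windows were placed.

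Lists of further genes of the pathway were set beside the 40. For Tom+ against Tom- cells, 0 genes passed an adjusted p-value of 0.05 in any of the 6 lists. Of 16 genes of the anaphase-promoting complex, the ubiquitin ligase that ends mitosis, 3 lay higher and 5 lay lower in both Tom+ libraries than in their Tom- partners. Their median difference between the tumors was 0.19, close to that of all genes, and the largest log2 fold change was that of the subunit gene Anapc7 (0.94, SE 0.39, adjusted p = 0.936 from limma), at 24.9 and 30.8 TPM in tumor #1, against 24.008 and 73.6 in tumor #2. In cohesin and condensin, the rings that hold and fold chromosomes, 14 of 19 genes were lower in tumor #2 and the median difference was -0.23. Of the 19, 2 had an unadjusted p-value below 0.05 for Tom+ against Tom-, 1 higher and 1 lower, beside 2.04% and 2.64% of all genes. Sgo1, for shugoshin, the protector of centromeric cohesin, was at 8.73 and 17.99 TPM in tumor #1, against 9.69 and 14.9 in tumor #2 (fold change on the log2 scale 0.77, SE 0.20, adjusted p = 0.936). Stag1, a cohesin subunit, was at 28.1 and 19.9 TPM and at 20.025 and 13.7 TPM (-0.50, SE 0.16, adjusted p = 0.936).

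Of 33 further centromere and kinetochore genes, 11 had a higher Tom+ level in each tumor and 5 a lower one, with a median log2 fold change of 0.035, and 18 were lower in tumor #2. The shares over all genes tested were 21.6%, 29.5% and 38.2%. The 1 with an unadjusted p-value below 0.05 was Kntc1, for the ROD subunit that brings MAD proteins to kinetochores, at 13.8 and 32.3 TPM in tumor #1, against 19.5 and 32.0 in tumor #2 (fold change on the log2 scale 0.93, SE 0.21, adjusted p = 0.936). At that unadjusted threshold 2.04% of all genes were higher in Tom+ cells. Of 39 further spindle, kinase and cytokinesis genes, 4 had a higher Tom+ level in each tumor and 16 a lower one, 34 were lower in tumor #2, and the median difference between the tumors was -0.43. The same shares of all genes, 21.6%, 29.5% and 38.2%, stand beside these counts. Anln, for anillin of the contractile ring, was at 22.2 and 11.9 TPM in tumor #1, against 14.2 and 7.69 in tumor #2 (fold change on the log2 scale -0.82, SE 0.17, adjusted p = 0.936). Cit, for citron kinase of the midbody, was at 4.92 and 7.86 TPM and at 7.76 and 21.6 TPM (0.98, SE 0.29, adjusted p = 0.936). These were the 2 genes of this list with an unadjusted p-value below 0.05, 1 higher and 1 lower, beside 2.04% and 2.64% of all genes. The 11 DREAM and MuvB genes, with the Rb relatives Rbl1 and Rbl2, had a median difference of 0.080 from tumor #1 to tumor #2. Their largest log2 fold change in Tom+ cells was that of Lin54, the subunit that contacts the CHR (-0.31, SE 0.18, adjusted p = 0.936).

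DNA replication genes, such as the Mcm helicase subunits, lay further from 0 than the mitosis genes. Of 30, 28 were lower in tumor #2, 27 without overlap, where 38.2% and 23.7% of all genes tested were. The median difference was -0.87. Their sum was 2734 and 2897 TPM in tumor #1, against 1719 and 1517 TPM in tumor #2, a ratio of 0.575, beside 0.653 for the mitosis genes. In the sorted pairs, 5 were higher and 11 lower in both tumors, where 21.6% and 29.5% of all genes were. Of the 30, 0 had an unadjusted p-value below 0.05, and the median log2 fold change was -0.031. The largest log2 fold change was that of Gins2, a subunit of the replicative helicase (-0.50, SE 0.18, adjusted p = 0.936). Whether the mitosis and replication genes differed by unequal amounts was not tested.

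**Figure D4:**
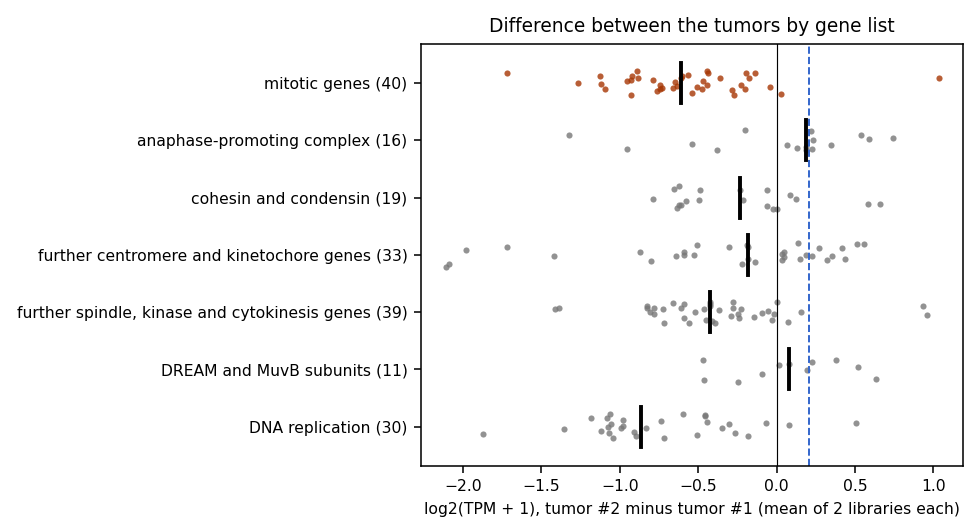
Difference of log2(TPM + 1), tumor #2 minus tumor #1, 1 point per gene, for the 40 mitosis genes and 6 further lists, with black bars for medians and a dashed line for the median of all genes tested. The medians of the mitosis genes (-0.61) and DNA replication genes (-0.87) lie furthest left, and those of the anaphase-promoting complex (0.19) and DREAM and MuvB genes (0.080) lie near the dashed line.

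Reads of some of these genes cannot be told from those of others. In GENCODE M21, 12 of the 40 genes have no 60-base word, the length of a read, in common with transcripts of another gene on either strand, among them Pttg1, and 9 share more than 5% of their words. Ccnb1 shares 21.5%, mainly with processed pseudogenes that were listed at 0.159 TPM or less in every library. Kif20a shares 24.5% with Cdc23 on the other strand, Prc1 shares 8.78%, mainly with Rccd1 on the other strand, and Mybl2 shares 18.4%, mainly with Gm3320. Ccna2 shares 11.1% with Exosc9 on the other strand, which was at 73.4 and 83.2 TPM in tumor #1, against 82.5 and 74.8 in tumor #2. Whether the counting used strand is not given in the sources used here, so the values of these genes are uncertain to that extent. The ratio of Ccnb1 to Ccna2 has the same limit. The annotation release behind the deposited values is also uncertain, so these shares hold for GENCODE M21 only.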

How the data were processed

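Total RNA of sorted B220+ IgM+ Tom+ and Tom- splenocytes from 2 λ-MYC mice was sequenced as single reads. Adaptors were trimmed with Cutadapt, and reads were assigned to GRCm38 mouse transcripts by Salmon, CASAVA 1.8 and Salmon 1.9 per the submitters' processing notes. The authors deposited 1 table of TPM for 34866 genes, and each library sums to 1000000 TPM. How transcripts were summed to genes is not given in the sources used here, the annotation release behind the values is uncertain, and depth is unknown. Symbols and positions came from GENCODE M21 (GRCm38), which held 34652 of the identifiers, and promoter windows from RefSeq (GRCm38.p6).

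Genes with at least 1 TPM in at least 2 libraries were tested as log2(TPM + 1), where fold changes of weakly expressed genes come out too small, with limma 3.58.1 in R 4.3.3, with tumor as a block, a variance trend, prior and residual degrees of freedom of 2.21 and 1, and Benjamini-Hochberg adjustment over all 11339 genes. The paired count test of the study, edgeR's, was not run because it needs counts. The study did report genes that differed between Tom+ and Tom- cells, so the lack of called genes here holds for the limma fits on TPM only. Each Tom+ library shares its mouse with 1 Tom- library, and their deviations from the group means correlated over genes (Pearson's r = 0.626). Standard errors and p-values rest on the spread of 2 pairs of each gene and on the variance trend over all genes. The trend weighs more, with 2.21 degrees of freedom against 1. Python 3.11.15, pandas 2.3.3, numpy 2.4.6 and matplotlib 3.10.9 were used for tables and plots, and the fit was tested on simulated data.

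The 40 genes and the lists were chosen with earlier results of these data known. Named with a value in each library were, per role, the most abundant gene and the one with the largest log2 fold change, all genes with an unadjusted p-value below 0.05 and the 5 with the largest difference between the tumors. Of each further list, genes with an unadjusted p-value below 0.05 were named or, where there were none, the 1 with the largest change. Others named were chosen after their values were seen. Alternatives were other pseudocounts (0.1 and 0.5), filters (none, or a mean of at least 5 TPM), scalings (trimmed mean with 30% of log ratios and 5% of levels trimmed at each end, quantile, and immunoglobulin, mitochondrial or all but nuclear protein-coding genes left out), variance models, no block, each tumor left out and each sorted population alone. Counts of genes lower in tumor #2 under these were added after seeing the data. Some items named in the labels or marker lists are not reported here.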

Additional observations from a re-analysis of the deposited data

How the results depend on the processing

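Of the 40 genes, 0 were called between Tom+ and Tom- cells under each alternative fit, and 0 of all genes tested were called under each. Without the replicate block, 0 genes and 0 of the 40 were called, and the genes at an unadjusted p-value below 0.05 went from 530 with the block to 140. The unadjusted count among the 40 was 0, or 1 without a filter and with nuclear protein-coding genes only. The median log2 fold change of the 40 genes was between -0.083 and -0.027 under the other settings, and leaving out a tumor gave -0.13 and -0.046, values with no test. The 192 values of 16 named genes under the alternative fits on all 4 libraries kept their sign and their side of the threshold. Without tumor #2, however, the sign turned for 6 of these genes, to 0.32 for Espl1, 0.050 for Pttg1, 0.047 for Mybl2, -0.19 for Ect2, -0.033 for Cdc25b and -0.00054 for Cdk1. The median difference between the tumors was -0.61. It was -0.64 with a pseudocount of 0.1 TPM, -0.84 with trimmed-mean scaling, -0.80 with quantile normalization, -0.58 without immunoglobulin genes, -0.49 without mitochondrial genes, -0.54 with nuclear protein-coding genes only and -0.59 in Tom+ libraries only. These scalings change what TPM is relative to. Between 37 and 39 of the 40 genes were lower in tumor #2, and the direction turned for Cenpe and Ect2 under other scalings, and for these, Mki67 and Kif23 in one sorted population alone. Depth is unknown, so that the precision of genes near 10 TPM cannot be stated, and with 1 residual degree of freedom differences of several standard errors, such as 0.93 with an SE of 0.21 for Kntc1, did not pass the adjusted test.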

Other observations

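Of the 33 further centromere and kinetochore genes, 5 were lower by at least 1 on the log2(TPM + 1) scale in tumor #2, where 5.54% of all genes tested were. They were singled out after their values were seen. All 5 encode subunits of the network that sits on centromeric chromatin throughout the cell cycle, but the differences of its other subunits in the list were 0.56 for Cenpc1, 0.41 for Cenpt, 0.32 for Cenpw, 0.27 for Cenpi, 0.031 for Cenpq, -0.22 for Cenpo, -0.51 for Cenpl and -0.53 for Cenpn, so the network as a whole was not on one side. Cenpk was at 23.7 (Tom-) and 27.9 TPM (Tom+) in tumor #1, against 3.35 and 8.04 TPM in tumor #2. Cenph was at 21.016 and 26.7 TPM in tumor #1, against 5.33 and 7.85 in tumor #2. For Cenpm the values were 10.8 and 20.005 TPM against 3.02 and 2.96 TPM, for Cenpp 10.2 and 12.1 TPM against 3.52 and 0.740 TPM, and for Cenpu 16.9 and 25.962 TPM against 9.35 and 5.51 TPM. In each of the 5 both libraries of tumor #2 were below both of tumor #1, and for Tom+ against Tom- the adjusted p-value from limma was 0.936 for 4 and 0.997 for Cenpu. Cenph, Cenpk and Cenpp lie on chromosome 13, as does Ccnb1, and Cenph lies close to Ccnb1. Cenpm and Cenpu lie on chromosomes 15 and 8. Whether position had a part in these differences was not tested.

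Among the genes that drive the anaphase-promoting complex, Ube2s, which extends ubiquitin chains on its targets, was at 282 and 231 TPM in tumor #1, against 106 and 96.9 in tumor #2. Of the 16 genes listed for that complex, it was the 1 lower by at least 1 on the log2(TPM + 1) scale (-1.32), a count close to the share of all genes (5.54%). In that list 11 genes were higher in tumor #2, and the median difference was 0.19. Outside that complex, the CDK subunit gene Cks2 was at 64.7 and 63.8 TPM against 23.4 and 24.4 TPM. Of the 39 further spindle, kinase and cytokinesis genes, 2 were lower by at least 1, again close to the share of all genes. Ube2s and Cks2 were singled out after their values were seen.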
